A study of Mus musculus with 6 samples.

Results

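The scavenger receptors are surface receptors with which macrophages bind and take up modified lipoproteins, dying cells, debris and microbes. The genes described are 10 of the 34745 genes in the deposited table, found by symbol alone: Msr1 and Marco of class A, Cd36 and Scarb1 of class B, Olr1 of class E, Scarf1 of class F, Stab1 and Stab2 of class H, Cd163 of class I, and Lrp1 of class L. The messenger RNA came from macrophages of mouse hearts, and 3 libraries from mice without legumain (Lgmn KO, replicates 1, 2 and 4) were compared with 3 from wild-type mice (WT, replicates 1, 2 and 3). All mice were C57BL/6 and 8 weeks old. The design text places every library after myocardial infarction, while the protocol text names ligation of the left anterior descending artery or a sham operation without saying which each mouse had. The labels give neither the Lgmn allele nor any pooling of animals, so p-values measure only how far these libraries differ, in part perhaps for technical reasons.

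Scavenger receptors are grouped by structure and share little sequence between classes, yet many recognise the same broad set of negatively charged or oxidised ligands. Ligands bound at the cell surface are carried to endosomes and on to lysosomes, where proteases such as legumain act. In the infarcted heart, macrophages use receptors of this kind, beside others, to take up dead heart muscle cells.

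All libraries held between 19546253 and 24086976 counts. Lgmn, the targeted gene, lay between 78.7 and 88.5 CPM (counts per TMM-adjusted library size) in Lgmn KO, against between 2205 and 2692 CPM in WT. All 11 pan-macrophage markers had at least 3 counts in a library, and their summed level was 20454 to 23653 CPM in Lgmn KO, against 23115 to 24232 CPM in WT, of which Lyz2 gave 69.8%. Of these 11 markers 9 had a negative log2 fold change: C1qa, C1qb and C1qc had -2.37, -2.03 and -2.10, of which C1qa passed the edgeR test (adjusted p = 0.0486), and Csf1r had -0.74 with groups that did not overlap. Among 7 markers of resident cardiac macrophages Lyve1 was at 0 in all 6 libraries. The sum of these 7 was 502 to 600 CPM in Lgmn KO, against 433 to 680 CPM in WT, of which Igf1 gave 40.3%. Igf1 was higher in Lgmn KO without overlap (log2 fold change 0.50, edgeR adjusted p = 0.0889). Of the 5 resident markers tested 4 were negative, and 0 of the 5 passed the edgeR test. Of the 34745 genes, 12546 passed the filter on low counts and were tested, among them 9 of the 10 receptors, and Cd163 did not pass.

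Promoter sequence was matched for Marco, Cd36, Cd163, Olr1, Stab2, Lrp1 and Stab1 and not for Scarf1, Msr1 and Scarb1. The 250 bases before the start of transcription (RefSeq, GRCm38.p6) are shown for a receptor that lay lower in Lgmn KO (Marco, chr1:120505025-120505274, minus strand), for one of the 2 most abundant receptors (Lrp1, chr10:127621149-127621398, minus strand) and for one at the limit of detection (Cd163, chr6:124304401-124304650, plus strand). Capitals mark matches on either strand to GAGGAA, the core recognised by the macrophage factor PU.1.
Marco: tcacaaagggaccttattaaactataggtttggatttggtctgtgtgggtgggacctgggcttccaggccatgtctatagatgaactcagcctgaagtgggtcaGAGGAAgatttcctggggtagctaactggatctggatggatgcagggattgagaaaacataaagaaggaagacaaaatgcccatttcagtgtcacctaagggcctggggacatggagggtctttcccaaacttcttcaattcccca
Lrp1: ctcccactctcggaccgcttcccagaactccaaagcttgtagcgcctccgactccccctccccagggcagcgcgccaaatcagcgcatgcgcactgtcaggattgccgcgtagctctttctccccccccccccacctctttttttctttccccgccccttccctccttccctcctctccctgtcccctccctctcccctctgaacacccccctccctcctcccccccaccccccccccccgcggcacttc
Cd163: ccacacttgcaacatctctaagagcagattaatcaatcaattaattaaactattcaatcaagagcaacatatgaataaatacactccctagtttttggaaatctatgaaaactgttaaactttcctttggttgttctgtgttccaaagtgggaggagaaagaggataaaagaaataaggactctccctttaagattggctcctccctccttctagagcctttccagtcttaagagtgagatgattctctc

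Marco, Stab1 and Olr1 held this core in their 250 bases, 3 of the 7 matched receptors, and 23.3% of 32851 promoters of the same length did. In Marco it lay from 146 to 141 bases before the start, in Stab1 from 30 to 25, and in Olr1, on the other strand, from 76 to 71. The AP-1 sequence TGANTCA was found in Olr1 alone of the 7 and in 6.75% of all promoters. The nuclear receptor motif AGGTCA was found in Cd36, Olr1 and Stab2 and in 14.0% of all promoters, and the Maf motif TGCTGA in Cd36 and Stab1 and in 16.1%. The gamma-activated site TTCNNNGAA was found in Lrp1 and in 7.02% of all. TATAAA was found in none of the 7 and in 12.4% of all promoters. All 6 motifs were searched on both strands, and the matches of the Maf motif and of the PU.1 core in Stab1 do not overlap. The Lrp1 window was 67.2% G or C with 13 CpG dinucleotides, that of Marco 47.6% with 0 and that of Cd163 36.8% with 0, against medians of 52.4% and 6 over all promoters. The Cd36 window (chr5:17835897-17836146) lay inside the deposited span of the gene (17781690 to 17888801), before an internal start. Other starts of Cd36 were not searched. A match is a run of letters only, and binding was not measured.

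Transcript levels differed widely among the receptors. On the per-length scale (FPKM, scaled by gene length as well as depth), Lrp1 stood at 231 ± 29.3 in Lgmn KO, against 234 ± 16.7 in WT, and Cd36 at 225 ± 35.5 and 214 ± 12.2 (SD, n = 3 each). These levels ranked 126 and 134 among the 34745 genes, and the ranges of Lrp1 and Cd36 overlapped in both groups. Lrp1, a very large endocytic receptor for apolipoprotein E, protease complexes and cell-surface calreticulin, and Cd36, a receptor for oxidised lipoproteins, fatty acids and thrombospondin, together made up 84.1% to 85.0% of the summed FPKM of the 10 receptors in Lgmn KO. In WT they made up 73.9% to 87.6%.

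Msr1, the trimeric class A receptor for modified lipoproteins, came next in FPKM, at 59.5 ± 6.22 in Lgmn KO, against 70.4 ± 37.9 in WT (SD, n = 3 each). Stab1 followed with 12.9 ± 2.66 and 17.8 ± 3.95, and Scarb1 with 6.10 ± 0.747 and 6.91 ± 0.629. In each of the 6 libraries Msr1 lay above Stab1 and Stab1 above Scarb1. Scarf1, Olr1 and Marco formed a group of low transcripts, with mean FPKM of 1.75, 2.33 and 1.05 in Lgmn KO, against 4.42, 2.35 and 3.29 in WT. Their order was not the same in both groups: in Lgmn KO their ranges did not overlap, and in WT the ranges of all 3 overlapped. Stab2 was at 0.0905 ± 0.0311 and 0.0750 ± 0.0466 FPKM, and Cd163 was lowest.

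**Figure D1:**
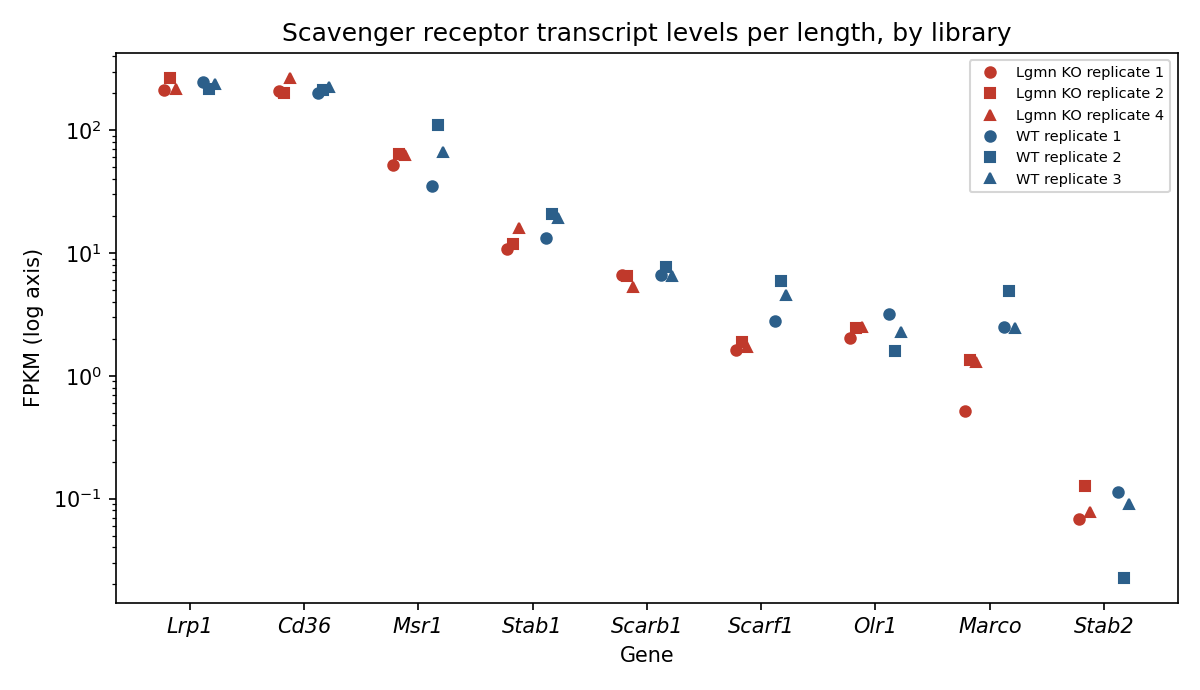
FPKM (log axis) of the 9 tested receptors in each library, Lgmn KO in red and WT in blue, with 1 point per library and a marker shape per library. Lrp1 and Cd36 lie highest, Stab2 lies at or below 0.126 FPKM in every library, and Cd163, with 0 counts in 4 libraries, is not drawn.

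By the edgeR quasi-likelihood test, 0 of the 9 tested receptors passed a Benjamini-Hochberg adjusted p of 0.05, where 0.789% of all 12546 tested genes did. At an unadjusted p under 0.05 there were 2, Scarf1 and Marco, where 17.5% of all genes were. The groups of these 2 did not overlap, both lower in Lgmn KO, and in either direction the same held for 23.7% of all genes tested. In bulk samples, fewer cells of a type and less RNA per cell cannot be told apart. The DESeq2 Wald test called both lower, where it called 3.59% of 14017 genes lower. Of the 9 log2 fold changes 6 were negative and 3 positive, with a median of -0.17, and the median over all tested genes was -0.00.

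**Figure D2:**
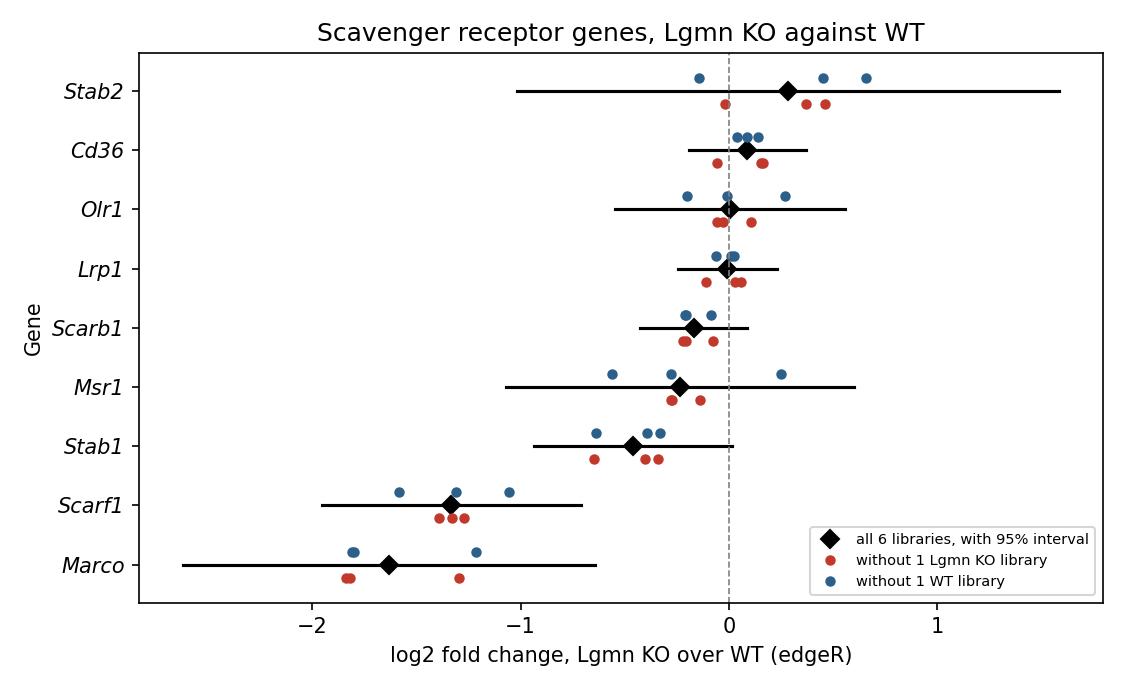
Log2 fold changes (Lgmn KO relative to WT) for the 9 tested receptors (black diamonds, with 95% intervals from the fit of all 6 libraries), with the values after leaving out 1 Lgmn KO library (red) or 1 WT library (blue). The intervals of Scarf1 and Marco lie below 0, and those of the other 7 cross it.

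Scarf1, a class F receptor known from endothelial cells and macrophages that binds acetylated lipoprotein and the complement protein C1q, was the receptor with the smallest p. Its levels were 7.11, 8.28 and 7.59 CPM in the Lgmn KO libraries (replicates 1, 2 and 4, in this order here and below), against 11.9, 26.1 and 19.8 CPM in the WT libraries (replicates 1, 2 and 3). The Lgmn KO libraries lay close together, and the WT libraries were spread over a 2.19-fold range. The mean was 7.66 ± 0.590 CPM in Lgmn KO, against 19.3 ± 7.09 CPM in WT (SD, n = 3 each). The log2 fold change was -1.33 (SE 0.27, 95% interval from -1.95 to -0.71, adjusted p = 0.0727 in the edgeR quasi-likelihood fit). With DESeq2 the adjusted p was 0.000119, with limma-voom and sample weights 0.0395, and with edgeR without the filter on low counts 0.0285. In fits without 1 library it ranged from 0.00611 (without WT replicate 1) to 0.195. Scarf1 (ENSMUSG00000038188) is a protein-coding gene of the plus strand (GRCm38, chromosome 11, 75513540 to 75526582).

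Marco, a class A receptor with a collagen-like stalk that binds bacteria and inhaled particles, was low in every library. It had 1.04, 2.71 and 2.64 CPM in Lgmn KO (replicates 1, 2 and 4), from 21, 53 and 56 counts. In WT replicates 1, 2 and 3 it had 4.96, 9.95 and 4.92 CPM, from 102, 215 and 118 counts. Lgmn KO replicate 1 was the lowest and WT replicate 2 the highest, and the groups did not overlap. The mean was 2.13 ± 0.946 CPM in Lgmn KO, against 6.61 ± 2.89 CPM in WT (SD, n = 3 each). The log2 fold change was -1.63 (SE 0.42, 95% interval from -2.62 to -0.64, adjusted p = 0.113 in the edgeR quasi-likelihood fit). The adjusted p was 0.00521 with DESeq2, 0.107 with limma-voom and sample weights, and 0.0676 with edgeR without the filter on low counts. It was 0.0752 to 0.284 in the edgeR fits without 1 library. Marco (ENSMUSG00000026390) is a protein-coding gene of the minus strand (GRCm38, chromosome 1, 120474538 to 120505024).

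The authors' deposited table marks Scarf1 and Marco as lower in Lgmn KO, with q-values of 9.89e-05 and 0.00362, and marks none of the other 8 receptors. Of the 17476 genes with a q-value, 1.96% carry this mark. The test behind it was not given in the sources used here.

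**Figure D3:**
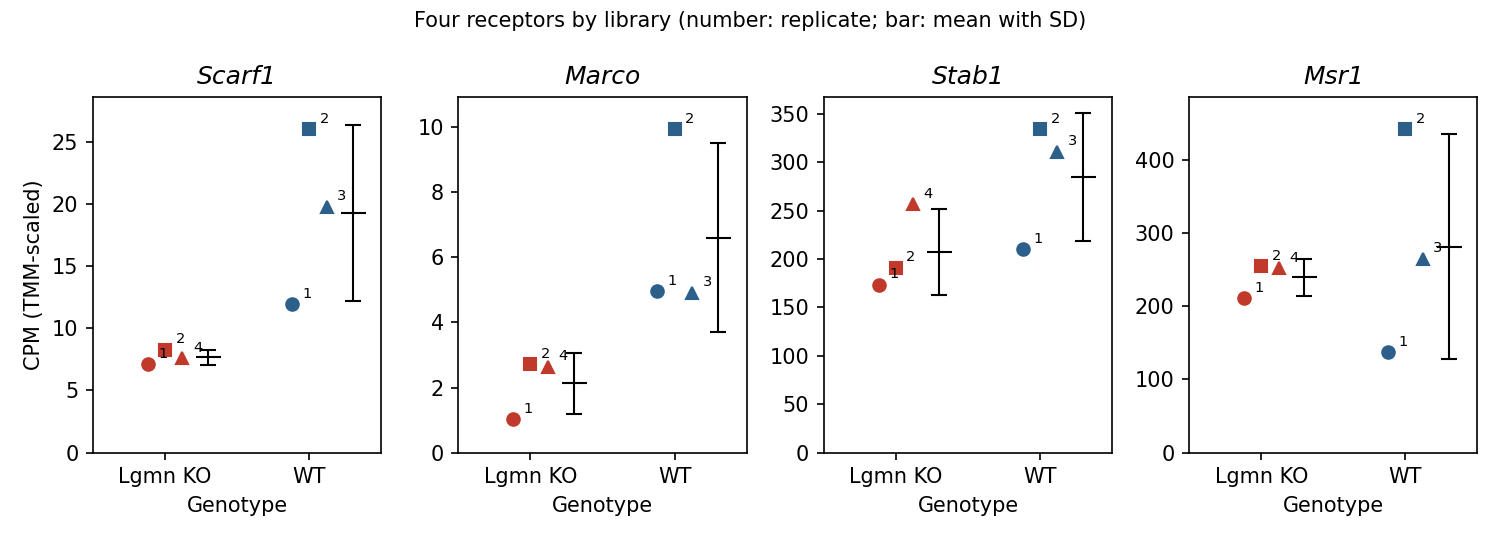
CPM (TMM-scaled, axes from 0) of Scarf1, Marco, Stab1 and Msr1 in each library, numbered by replicate, with the mean and SD of each group beside the points. The groups do not overlap for Scarf1 and Marco, and for Msr1 both the lowest and the highest library are WT.

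Msr1 (ENSMUSG00000025044, chromosome 8), the other class A receptor, differed far more within WT than between the groups. It stood at 211, 255 and 252 CPM in Lgmn KO, against 137, 442 and 265 CPM in WT. The WT libraries thus lay both below and above all Lgmn KO libraries, with a 3.22-fold range against 1.21-fold in Lgmn KO. Its log2 fold change was -0.23 with a 95% interval from -1.07 to 0.60 (edgeR quasi-likelihood test, adjusted p = 0.792), and 0.25 without WT replicate 2.

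The class B receptors lay close to equal in the 2 groups. Cd36 (ENSMUSG00000002944, chromosome 5, 17781690 to 17888801) was at 1738, 1690 and 2249 CPM in Lgmn KO, against 1657, 1781 and 1901 CPM in WT. Its log2 fold change was 0.09 with a 95% interval from -0.19 to 0.37 (edgeR quasi-likelihood test, adjusted p = 0.762), and the groups overlapped. Scarb1 (ENSMUSG00000037936, chromosome 5, 125277087 to 125341094), the receptor for high-density lipoprotein, was at 81.5, 79.3 and 65.2 CPM in Lgmn KO, against 80.0, 94.0 and 79.8 CPM in WT. The groups overlapped, and the log2 fold change was -0.17 with a 95% interval from -0.42 to 0.09 (edgeR quasi-likelihood test, adjusted p = 0.491).

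Lrp1 (ENSMUSG00000040249, chromosome 10, 127538161 to 127621148, minus strand) differed little between libraries. It stood at 4454, 5529 and 4574 CPM in Lgmn KO, against 5104, 4527 and 5006 CPM in WT, which is 0.443% to 0.553% of all counts of a library. The groups overlapped, and Lgmn KO replicate 2 lay above all WT libraries. The log2 fold change was -0.01 with a 95% interval from -0.25 to 0.23, the narrowest of the 9 (edgeR quasi-likelihood test, adjusted p = 0.982).

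Olr1 (ENSMUSG00000030162, chromosome 6, 129485244 to 129507165) encodes the lectin-like receptor for oxidised low-density lipoprotein. It was at 8.49, 10.3 and 10.6 CPM in Lgmn KO, against 13, 6.71 and 9.51 CPM in WT, so that the highest and the lowest library were both WT. The group means were 9.77 ± 1.12 and 9.74 ± 3.15 CPM (SD, n = 3 each). The log2 fold change was 0.01 with a 95% interval from -0.55 to 0.56 (edgeR quasi-likelihood test, adjusted p = 0.994).

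The pair of stabilins, large receptors with fasciclin and EGF-like domains, was unequally expressed. Stab1 (ENSMUSG00000042286, chromosome 14, 31139013 to 31168641), which macrophages use to take up the matrix protein SPARC and apoptotic cells, was at 174, 191 and 257 CPM in Lgmn KO, against 210, 335 and 311 CPM in WT. Lgmn KO replicate 4 lay above WT replicate 1, so the groups overlapped. Its log2 fold change was -0.46 with a 95% interval from -0.93 to 0.01 (edgeR quasi-likelihood test, unadjusted p = 0.0556, adjusted p = 0.300), -0.64 without WT replicate 1 and -0.33 without WT replicate 2. Stab2 (ENSMUSG00000035459, chromosome 10, 86841198 to 87008025), the hyaluronan receptor of sinusoidal endothelium, had 14, 25 and 17 counts in Lgmn KO, against 23, 5 and 22 in WT. WT replicate 2 was lowest for Stab2 and highest for Stab1. In FPKM Stab1 exceeded Stab2 by 94.8 to 916 times in the 6 libraries. The log2 fold change of Stab2 was 0.28 with a 95% interval from -1.02 to 1.58 (edgeR quasi-likelihood test, adjusted p = 0.845). Of 10288 exonic bases of Stab1, 112 overlap exons of Nt5dc2, and of 8757 of Stab2, 141 overlap those of Gm16268, both on the other strand. The strand setting was not given in the sources used here.

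Cd163 (ENSMUSG00000008845, chromosome 6, 124304656 to 124330527), the receptor for complexes of haemoglobin and haptoglobin and a common marker of resident tissue macrophages, was nearly undetected. It had 0, 0 and 1 counts over the Lgmn KO libraries, against 0, 8 and 0 over the WT libraries. The 8 counts of WT replicate 2 are 0.370 CPM, and a count of 0 allows up to 0.125 to 0.153 CPM in these libraries (3 counts, counting error only). It was not tested and no fold is given. Timd4, another marker of resident macrophages, was at most 0.648 CPM, whereas Folr2 and F13a1 of the same marker list reached 25.6 and 158 CPM.

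The receptors did not all vary in the same direction across libraries, though some shared their highest or lowest library. WT replicate 2 was the highest of the 6 libraries for Msr1, Marco, Stab1, Scarb1 and Scarf1 and the lowest for Olr1 and Stab2. Lgmn KO replicate 1 was the lowest for Marco, Stab1, Lrp1 and Scarf1. WT replicate 1 lay nearest to the Lgmn KO libraries for Scarf1, within the Lgmn KO range for Stab1 and below it for Msr1. For Lrp1, Scarb1 and Cd36 the widest departure of a library from the mean was 0.19, -0.29 and 0.30 on the log2 scale, less than for the other 6 tested receptors.

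**Figure D4:**
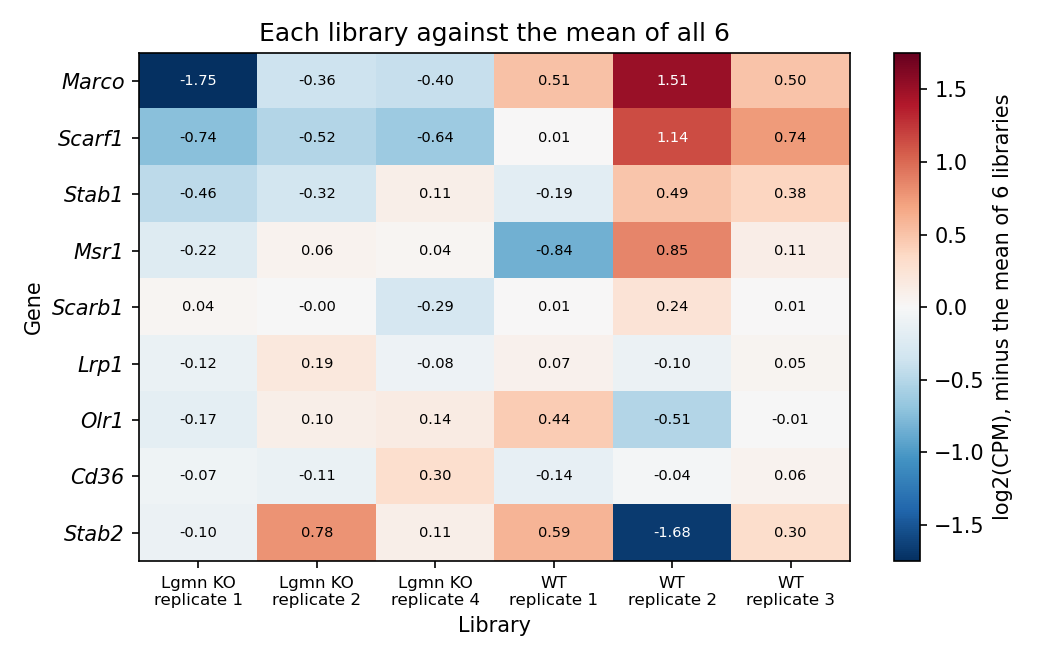
The log2 CPM of each of the 9 tested receptors in each library, minus the mean of the 6 libraries (colour and number), with genes ordered by log2 fold change. Marco and Scarf1 are below their mean in all Lgmn KO libraries and above it in all WT libraries, WT replicate 2 reaches 1.51 for Marco and -1.68 for Stab2, and the values of Lrp1, Scarb1 and Cd36 stay within 0.30 of 0.

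Markers of other cell types also differed between the libraries, and their part in the results was not tested. Summed markers of T and NK cells were at 0.987 to 1.32 CPM in Lgmn KO, against 4.23 to 9.97 CPM in WT (7 of 8 markers with at least 3 counts in a library, Ncr1 at 0 in all). Dendritic cell markers summed to 1.83 to 2.66 and 2.77 to 7.13 CPM (5 of 6, Siglech at 0), and fibroblast markers to 45.4 to 117 and 132 to 181 CPM (7 of 8). Of the 3 tested dendritic cell markers 2 were negative. Zbtb46, from 6 to 30 counts in a library, passed the edgeR test (log2 fold change -2.15, adjusted p = 0.0410). For endothelial cells, where Scarf1, Stab2 and Cd36 are also expressed, the sum was 179 to 236 CPM in Lgmn KO, against 155 to 210 CPM in WT (11 of 15, with Tek, Emcn and Erg at 0 in all 6 libraries), and Vwf made up 81.2% of it. Among these endothelial markers Flt1 was at 0.920 to 1.43 CPM in Lgmn KO, against 6.38 to 11.1 CPM in WT. Pecam1 was at 0.141 to 0.409 and 0.827 to 1.76 CPM, and Esam at 0.409 to 0.754 and 1.04 to 1.41 CPM. Of the 5 endothelial markers tested only Flt1 passed the edgeR test (adjusted p = 0.0150). Others did not follow: Kdr and Vwf had log2 fold changes of 0.01 and 0.30, and Tie1 was at 0.283 to 0.409 CPM in Lgmn KO, against 0 to 0.125 CPM in WT. Lymphatic and sinusoidal endothelial markers summed to 187 to 206 and 143 to 167 CPM (4 of 7, with Ccl21a, Mmrn1 and Clec4g at 0 in all). Pdpn made up 65.8% of this sum, and the groups overlapped for Pdpn and Oit3, the 2 markers tested. Flt4, not tested, was at 0.197 to 0.460 CPM in Lgmn KO, against 0.375 to 1.90 CPM in WT. Monocyte markers summed to 437 to 541 and 432 to 643 CPM (6 of 6), 90.3% of it Chil3. Beneath that sum, Ccr2 was at 3.88 to 6.42 CPM in Lgmn KO, against 11.4 to 67.2 CPM in WT, and Ly6c2 at 2.04 to 13.2 and 17.5 to 21.3 CPM, neither with overlap. Neutrophil markers summed to 272 to 328 and 311 to 455 CPM (9 of 10), 53.1% of it Csf3r. Of the 6 tested neutrophil markers 3 were negative. Mmp8 had a log2 fold change of -1.18 and Cxcr2 of 0.43, both without overlap of the groups, and Csf3r had 0.18. Platelet and megakaryocyte markers summed to 46.8 to 50.8 and 66.2 to 85.4 CPM (3 of 4, Gp9 at 0 in all), 99.1% of it Pf4. Itga2b of the same list, not tested, went the other way, at 0.424 to 0.511 CPM in Lgmn KO, against 0.0926 to 0.375 CPM in WT. The C1q gene C1qa, whose product is a ligand of Scarf1, was at 25.4, 34.7 and 36.1 CPM in Lgmn KO, against 81.4, 259 and 157 CPM in WT, and WT replicate 2 was highest for it too.

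Among 18 further scavenger receptors 13 were tested, of which 0 rose and 1 fell, the median log2 fold change was -0.45 and 9 were negative. An unadjusted p under 0.05 was reached by 8 of the 13, where 17.5% of all genes reached it, and 0.789% of all were called. The gene that fell was Cxcl16, a transmembrane chemokine that also binds oxidised lipoprotein. It was at 50.0, 49.3 and 62.7 CPM in Lgmn KO, against 96.8, 150 and 107 CPM in WT, with no overlap. Its log2 fold change was -1.13 (SE 0.18, adjusted p = 0.0465 in the edgeR quasi-likelihood fit), and it passed in 1 of the 6 fits without 1 library (adjusted p from 0.0143 to 0.178). Exons of Cxcl16 overlap those of Zmynd15. Colec12, a collectin of the scavenger type, went the other way, at 57.8, 33.4 and 52.5 CPM in Lgmn KO, against 18.9, 23.2 and 23.2 CPM in WT (log2 fold change 1.14, edgeR adjusted p = 0.0555), and DESeq2 called it higher, as it did 1.98% of all genes. Clec7a, the beta-glucan receptor Dectin-1, had a log2 fold change of -0.74 (edgeR adjusted p = 0.141), and Cd68, the abundant endosomal glycoprotein of macrophages, 0.18 (edgeR adjusted p = 0.292). The further receptors thus included non-overlapping groups in both directions, 5 lower and 1 higher, against 23.7% of all genes in either direction.

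Relatives and adaptors of Lrp1, Scarb1 and Cd36 gave 0 calls among 16 tested members of 18 with edgeR, where 0.789% of all genes were called, with a median of -0.12. There were 6 at an unadjusted p under 0.05 (17.5% of all genes), and DESeq2 called 2 lower, Lrp5 and Lrpap1 (3.59% of all genes). Lrpap1, the chaperone that keeps Lrp1 from binding ligands during its synthesis, was at 185, 148 and 158 CPM in Lgmn KO, against 235, 220 and 207 CPM in WT (log2 fold change -0.43, edgeR adjusted p = 0.0866). The related receptor genes Lrp5 and Lrp12 had log2 fold changes of -0.47 and -0.25.

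Ligands of the receptors gave 0 edgeR calls among 16 tested genes of 19 (0.789% of all genes) and 6 at an unadjusted p under 0.05 (17.5% of all), with a median of -0.36 and 12 negative values. DESeq2 called 4, Thbs1, Hp, Plau and Sparc, all lower (3.59% of all genes were), the latter 2 named after their values were seen. Thbs1, whose product thrombospondin binds Cd36, was at 274, 360 and 436 CPM in Lgmn KO, against 518, 935 and 663 CPM in WT (log2 fold change -0.98, edgeR adjusted p = 0.0968). Hp, which encodes haptoglobin, had a log2 fold change of -0.88 (edgeR adjusted p = 0.0825) at 8.16 ± 1.05 and 15.0 ± 3.48 CPM (SD, n = 3 each). The abundant lipoprotein genes Apoe and Lpl had log2 fold changes of -0.29 and 0.09.

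Transcription regulators gave 0 edgeR calls among 19 tested members of 20 (0.789% of all genes) and 4 at an unadjusted p under 0.05 (17.5% of all), with a median of -0.08. DESeq2 called 1 lower, Maf (3.59% of all genes). Maf, a lineage factor of resident macrophages, was at 61.3, 75.4 and 76.6 CPM in Lgmn KO, against 91.5, 154 and 135 CPM in WT (log2 fold change -0.84, edgeR adjusted p = 0.0862), and Nr4a1 had -0.64 (edgeR adjusted p = 0.180). Cebpa and Stat6 were near equal, with log2 fold changes of -0.07 and 0.02.

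Among signalling partners and shedding proteases 0 of 20 rose and 1 fell (0.789% of all genes were called), with a median of -0.15, and 6 had an unadjusted p under 0.05 (17.5% of all). The gene that fell was Tlr2, a sensor of bacterial lipoproteins that works with Cd36, at 17.1, 15.9 and 13.6 CPM in Lgmn KO, against 30.5, 41.8 and 36.3 CPM in WT. Its log2 fold change was -1.22 (SE 0.14, adjusted p = 0.0224 in the edgeR quasi-likelihood fit), and it passed in 2 of the 6 fits without 1 library (adjusted p from 0.00611 to 0.124). Cd36 itself, as given above, did not pass. Lyn, a kinase that acts below Cd36, had a log2 fold change of -0.33 (edgeR adjusted p = 0.168), the tetraspanin gene Cd9 0.19 and the integrin gene Itgb2 -0.11. Among the genes named from these lists, exons of Thbs1, Maf, Lyn, Cd9, Cebpa and Stat6 also overlap those of another gene.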

How the data were processed

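RNA of cardiac macrophages (cells stained for CD45, CD64 and CD11b, per the labels' protocols) was sequenced. One deposited table holds, per the file headers, a count and an FPKM value per gene and library. The counts are whole numbers taken as raw reads. The deposited FPKM values equal count over gene length and library total (1 length within 0.5 bases in 100% of 9082 genes with high counts) and were used, untested, to compare levels between genes. The authors' log2 fold change, p-value and q-value per gene were only described. The submitters' processing notes name TopHat2 2.0.9, TopHat, HISAT2 and hg38, whereas IDs and positions are those of mouse: 9 of the 10 receptors have the GENCODE M21 (GRCm38) positions, and Msr1 does not. The read counter and its strand setting were not given in the sources used here.

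Genes were filtered with filterByExpr, scaled by TMM and tested over the whole table with edgeR 4.0.16 (glmQLFit, glmQLFTest) under R 4.3.3 on the 2 genotypes, without covariates. Standard errors come from the F statistic and 95% intervals from its degrees of freedom. Alternatives used DESeq2 1.42.0, limma 3.58.1 and those in the closing section. The procedure was tested on simulated data with the same dispersion for every gene, in which only well-counted genes were changed. That test does not cover genes with low counts such as Marco and Stab2, or the wider spread of some genes in WT. Depth was 19546253 to 24086976 counts. Squared differences between any 2 libraries of a group were 14.0 to 42.7 times those of sampling noise (chi-square per degree of freedom). Each library was counted on its own, although a spread of this size does not show that the libraries came from separate animals.

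Named genes are all 10 receptors, Lgmn, and of each of 6 further lists (110 genes, 99 tested) the called genes, the 2 with the smallest p and the 2 with the highest mean level, of which 1 gene is not reported here. Marker genes are named where they are at 0, make up most of a sum, or bear on a receptor or a sum. The last of these were chosen after their values were seen. Among them are C1qa, Csf1r, Igf1, Ccr2, Ly6c2, Flt1, Pecam1, Esam, Tie1, Timd4, Folr2, F13a1, Oit3, Flt4, Zbtb46, Mmp8, Cxcr2 and Itga2b. The receptors and the lists were chosen with earlier results of these data known.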

Additional observations from a re-analysis of the deposited data

How the results depend on the processing

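Of the receptors, 0 were called in the fit reported, 2 (Scarf1 and Marco) by DESeq2, and 1 (Scarf1) without the filter on low counts, at a threshold of 0.1 and without WT replicate 1. With limma-voom and sample weights Scarf1 passed as well (adjusted p = 0.0395) and Marco did not (adjusted p = 0.107). In the fits without 1 library the count ranged from 0 to 1. Over all genes the count was 99, against 780 with DESeq2, 318 without the filter, 503 at a threshold of 0.1, 90 with RLE factors, 135 with upper quartile factors and 6 to 639 without 1 library (6 without Lgmn KO replicate 2, 639 without WT replicate 1). Of the 99 tested genes of the further lists 2 were called, against 15 with DESeq2, 7 without the filter, 10 at a threshold of 0.1 and 0 to 16 without 1 library.

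Replicate numbers 1 and 2 occur in both groups, and the labels do not say that they mark a shared day or litter. Deviations of same-numbered libraries from their group means correlated at 0.12 and 0.08 (Pearson, across genes). With the replicate block, 39 genes were called, 0 of the further lists (so neither Cxcl16 nor Tlr2) and 0 receptors. In that fit the genotype effect rests on replicates 1 and 2 alone. WT replicate 3 and Lgmn KO replicate 4 have no partner of the same number and add nothing to it. The lost calls are therefore not a check on all 6 libraries. Log2 fold changes then were -1.21 for Scarf1 and -2.04 for Marco.

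Scarf1, Marco, Stab1 and Scarb1 had a negative log2 fold change in every fit run. For Scarf1 it was -1.58 to -1.05 and for Marco -1.84 to -1.21 without 1 library, but groups that do not overlap cannot change sign that way. The values near 0 changed sign: Lrp1 was 0.0018 with DESeq2, 0.00053 with RLE and with upper quartile factors, 0.0039 without the filter, 0.00018 with limma-voom, 0.046 with the replicate block and -0.110 to 0.0592 without 1 library. Cd36 was -0.0029 and Olr1 -0.011 with the replicate block. Without 1 library Cd36 ranged from -0.0577 to 0.166, Olr1 from -0.20 to 0.27, Msr1 from -0.56 to 0.25 and Stab2 from -0.14 to 0.66. The cause of these changes was not tested. Counts of 5 to 25 limit Stab2, and those of 0 to 8 Cd163.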

Other observations

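Genes that handle lipid and heme after uptake had a median log2 fold change of 0.11 over 15 tested genes, of which 6 were negative. By the edgeR quasi-likelihood test 0 were called, 8 had an unadjusted p under 0.05 (17.5% of all genes had), and 5 were higher and 1 lower in Lgmn KO without overlap of the groups (23.7% of all genes in either direction). Plin2, which coats lipid droplets, was at 2696 ± 342 CPM in Lgmn KO, against 2036 ± 38.9 CPM in WT (SD, n = 3 each; log2 fold change 0.41, edgeR adjusted p = 0.0937). Lipa, the lysosomal acid lipase, had a log2 fold change of 0.27 (edgeR adjusted p = 0.0907). DESeq2 called both, with adjusted p of 0.00724 and 0.00645. The ferritin genes Fth1 and Ftl1, the most abundant of the list, had log2 fold changes of 0.26 and -0.07, and exons of Ftl1 overlap those of Gm10252 and Gm22133.

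Of all 99 tested genes of the further lists DESeq2 called 12 lower and 3 higher, where it called 3.59% of 14017 genes lower and 1.98% higher. The higher ones were Colec12, Lipa and Plin2. Among the lower ones were Mrc1, the mannose receptor, and Cd44, a hyaluronan receptor, which the rule for named genes does not take and which were chosen after their values were seen. The log2 fold change was -0.49 for Cd44 (edgeR adjusted p = 0.0701) and -0.72 for Mrc1 (edgeR adjusted p = 0.152).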
